A study of Mus musculus with 26 samples.

Results

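The genes described here are the amino acid transporter genes of mouse blood progenitors, taken by their symbols. Every gene whose symbol starts with Slc1a, Slc3a, Slc6a, Slc7a, Slc36a, Slc38a or Slc43a was a member where a probe set annotated to that symbol alone measured it, and where several did, the brightest on average stood for the gene. This gave 63 of the 18194 genes measured. By family they were 16 Slc7a, 21 Slc6a, 9 Slc38a, 7 Slc1a, 5 Slc36a, 3 Slc43a and 2 Slc3a genes. Slc38a8 and Slc38a11 had no such probe set. The symbol rule also took in Slc7a6os, Slc36a1os and Slc6a19os, which are named as opposite-strand genes of a neighbouring transporter and are not transporters, and many Slc6a genes that carry neurotransmitters, taurine or creatine.

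RNA of 8 populations was hybridised to 26 Affymetrix mouse arrays, 1 array per sample, to compare the populations with each other. By their titles 5 arrays hold MPPFL- RNA, and every other population (MPPFL+, CMP, GMP and CLP of the marrow, DN1 to DN3 of the thymus) has 3. All samples are labelled C57/Bl6, male and 2 months old, with no treatment named. The DN1, DN2 and DN3 samples are labelled thymocytes and the others bone marrow. In the field's usage MPP are multipotent progenitors split by the receptor Flt3, CMP and GMP are the myeloid progenitors that lead to granulocytes and macrophages, CLP are lymphoid progenitors of the marrow (a second label reads ALP), and DN1 to DN3 are successive early T cell stages of the thymus. No label says whether arrays of a population come from separate animals, so the p-values measure only the spread between these samples. Values are log2 signals as deposited. A difference is given on that log2 scale with its standard error, and it is negative where the population named as lower, or the later step, is lower.

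Amino acids enter and leave cells through these carriers. Slc3a2, the heavy chain known as CD98, brings light chains such as Slc7a5 to the cell surface, where the pair exchanges leucine and other large neutral amino acids for glutamine. Slc1a4, Slc1a5 and several Slc38a carriers bring in glutamine and small neutral amino acids with sodium, while the other Slc1a members are glutamate transporters. Slc7a1 and Slc7a2 bring in arginine and lysine, and Slc36a1, Slc38a7 and Slc38a9 sit on the lysosome, where amino acid supply is read by the kinase mTORC1. Dividing blood and T cells depend on this supply for growth.

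The promoters of members whose levels differed between populations are shown first, since E-boxes are the sites bound by Myc and the lysosomal factor Tfeb and the sequence TGATGNAA is the core of the site through which Atf4 acts. Promoters are from RefSeq on build GRCm38.p6, as the 250 bases before the start site, and 46 of the 63 members had an entry, with 67 windows in all. The E-box CACGTG, the same on both strands, was found in 9 of the 67 windows (13.4%), against 6.02% of all 32851 promoter windows used. Of the 9 genes, the 4 whose signal differed among the populations were Slc36a1, Slc38a5, Slc38a7 and Slc43a1. By the same test, given below, 27 of the 63 members and 58.1% of all genes differed. The other E-box genes, Slc1a6, Slc1a7, Slc6a16, Slc6a3 and Slc7a14, were dim by the limit given below, as was Slc38a5. TGATGNAA on either strand was in 4 of the 67 windows (5.97%, against 3.45% of all), and GGAAGTG, a core bound by PU.1 and other Ets factors, in 1 of 67 on either strand (1.49%, against 8.55% of all). Slc7a7, the member with the clearest change in GMP, held TGATGNAA in 2 windows and the Ets core in 1. In the 30-base stretches below, written 5′ to 3′ in the direction of the gene, capitals mark the motif.
Slc36a1, chr11:55204297-55204326, + strand: ggaatggagcggCACGTGacctgggctagg
Slc38a7, chr8:95853508-95853537, - strand: gtgattcaggctCACGTGttacttgagtcg
Slc38a5, chrX:8271339-8271368, + strand: gcagacaggtgaCACGTGtccctgttaaga
Slc43a1, chr2:84840247-84840276, + strand: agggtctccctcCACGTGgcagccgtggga
Slc7a7, chr14:54418067-54418096, - strand: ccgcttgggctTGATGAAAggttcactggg
Slc7a7, chr14:54417923-54417952, - strand: tagaagcTGATGCAAcagcttccccgaggg
Slc7a7, chr14:54418143-54418172, - strand: cctcatgtcttCACTTCCtaagtgctggaa
A match is a description of these letters and says nothing of binding in these cells. The motifs of Slc7a7 do not overlap one another.

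The lowest deposited value was 2.17, and 30.2% to 37.1% of the probe sets of an array stood at it, so this value is a floor and not a level. A gene was called dim where each population's mean was below 5.31, the median over genes of the mean signal. By this limit 40 of the 63 members (63.5%) were dim, against 44.6% of all genes, and 29 of them stayed within 1 of the floor on all 26 arrays. The 23 members that were not dim were Slc3a2, Slc7a1, Slc7a4, Slc7a5, Slc7a6, Slc7a6os, Slc7a7, Slc7a8, Slc43a1, Slc43a2, Slc43a3, Slc1a4, Slc1a5, Slc38a1, Slc38a2, Slc38a6, Slc38a7, Slc38a9, Slc38a10, Slc36a1, Slc36a4, Slc6a6 and Slc6a15. All 5 glutamate transporters were dim, and so were 17 of the 19 Slc6 transporters.

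Marker genes were first checked against the population labels. Mpo averaged 16.11 in GMP, Il7r 13.23 in CLP, Il2ra 13.14 in DN2 and Ptcra 12.81 in DN3, while Flt3 averaged 10.99 in MPPFL- and 13.31 in MPPFL+. Il2ra, which DN1 cells lack by their usual definition, averaged 7.37 in DN1. Each of the 26 arrays lay closest to its own population. Several other features differed between the arrays, and they touch the results below. Xist, a transcript of female cells, stood above 10 on 3 arrays labelled male, DN1 replicate 1 (12.2), DN1 replicate 3 (13.6) and DN2 replicate 2 (12.99). The poly-A spike-in controls, added to the RNA before labelling, averaged 3.63 to 5.09 on MPPFL-, MPPFL+ and CLP arrays, 8.59 to 9.34 on CMP, 7.22 to 7.50 on GMP, 2.46 to 2.56 on DN1 and DN2 and 9.87 to 11.7 on DN3. By these controls the arrays were cut into 6 clusters, a number set beforehand and not found from the data. CMP replicate 1 stood alone, and DN3 replicate 3 fell with CMP replicate 2 and CMP replicate 3. Of the 8 comparisons made here only MPPFL+ against MPPFL-, CLP against MPPFL+ and DN2 against DN1 lay within 1 cluster. A list of 10 genes that rise on handling, such as Fos and Jun, averaged 9.87 to 10.4 on CMP, 9.03 to 12.7 on DN1 and DN2 and 5.60 to 9.32 on DN3. The part of these features in the results was not tested, apart from the alternatives given beside them. In these bulk samples fewer cells of a type and less RNA per cell cannot be told apart.

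Across the 8 populations 27 of the 63 members differed by the moderated F test of limma at an adjusted p under 0.05 (Benjamini-Hochberg over all genes), against 58.1% of all genes. They were 22 of the 23 members that were not dim (92.3% of all genes that were not dim passed) and the dim genes Slc36a2, Slc38a5, Slc6a13, Slc6a2 and Slc7a2. Slc1a4, a carrier of serine, alanine and cysteine, was the member that was not dim and did not pass: its arrays ran from 3.40 to 6.44. As a description only, GMP and DN3 each held the highest mean of 6 of the 23, and of all genes that were not dim 21% had their highest mean in GMP and 19.2% in DN3.

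**Figure D1:**
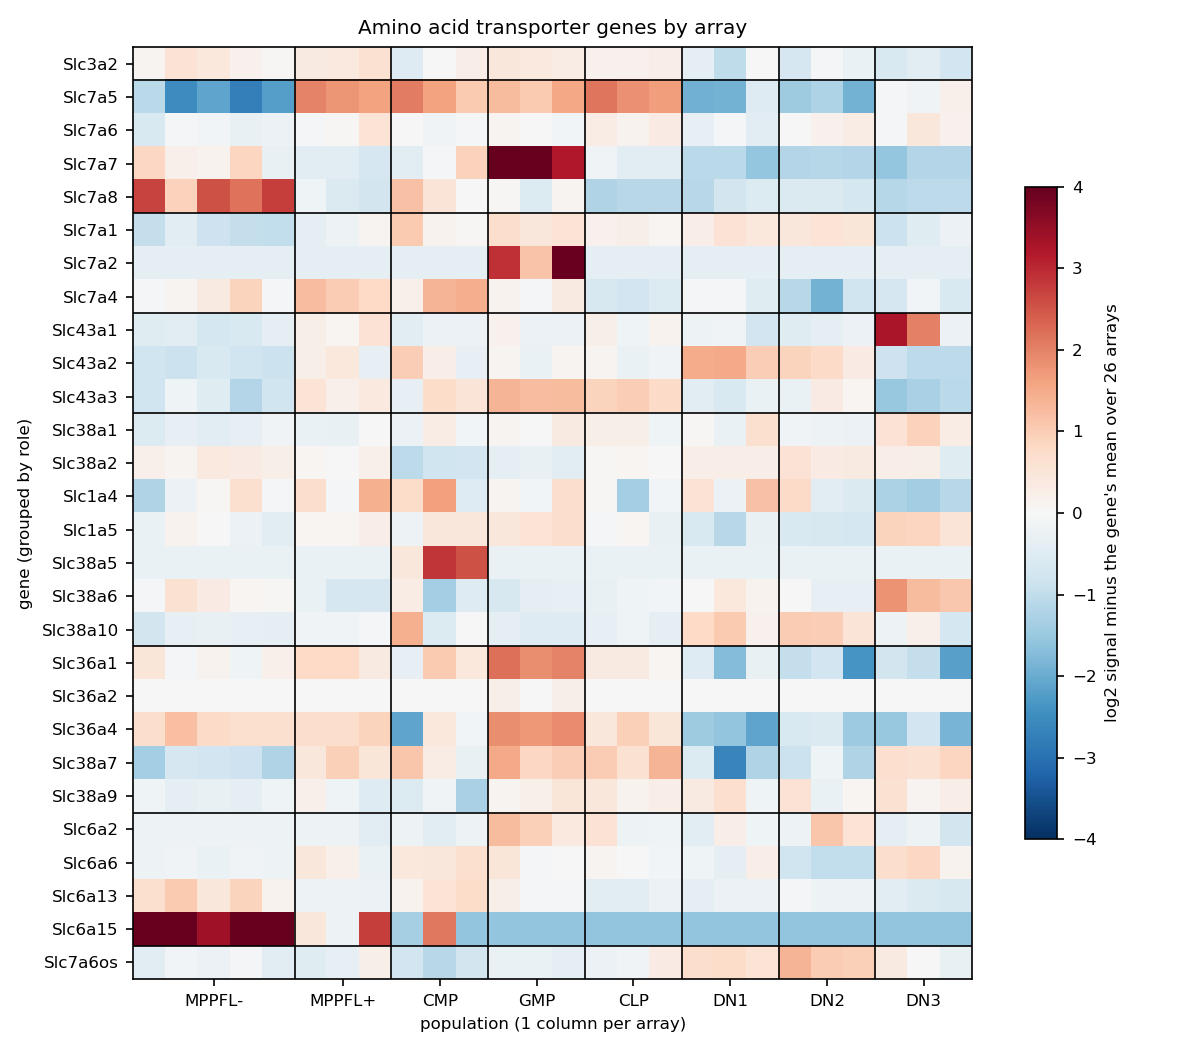
Log2 signal of 28 members on the 26 arrays, as the difference from each gene's mean over all arrays, with 1 row per gene grouped by role and 1 column per array grouped by population (colour scale from -4 to 4, values beyond it take the end colour). The rows are the 23 members that were not dim and the 5 dim members that passed the F test. Slc6a15 and Slc7a8 are red in MPPFL-, Slc7a7 and Slc7a2 in GMP, and Slc7a5 is blue in MPPFL-, DN1 and DN2.

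Neighbouring populations were then compared in pairs, with all 26 arrays in 1 fit. Between MPPFL- and MPPFL+ 10 of 63 members passed (15.9%), 6 higher and 4 lower in MPPFL+, against 15.9% of all genes (10.6% higher and 5.25% lower). Between MPPFL+ and CMP 6 passed, 3 higher and 3 lower in CMP, against 24.1% of all genes (5.39% and 18.7%). From CMP to GMP 12 passed, 11 higher and 1 lower, against 21.4% (13.8% and 7.63%). From MPPFL+ to CLP 2 passed, both lower, against 6.54% (2.53% and 4.01%). From CLP to DN1 10 passed, 3 higher and 7 lower, against 26.9% (8.03% and 18.8%). From DN1 to DN2 2 passed, both lower, against 8.11% (3.99% and 4.12%). From DN2 to DN3 14 passed, 7 higher and 7 lower, against 31.1% (16.7% and 14.4%). CLP set against GMP gave 10, 1 higher and 9 lower in CLP, against 28.3% (16.7% and 11.6%). The median difference over the 63 members was 0 in each comparison, as over all genes, but most members were dim, so this median does not describe the brighter ones. Comparisons that share a population share its arrays.

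The split into higher and lower depended on scaling in 3 comparisons. After quantile normalization, which makes all arrays share 1 distribution, the calls were 5 higher and 1 lower in CMP against MPPFL+, 7 higher and 3 lower in GMP against CMP, and 6 higher and 4 lower in DN1 against CLP. That scaling moved the median difference over genes above the dim limit by 0.35, -0.19 and 0.29 in these comparisons, by -0.14 in MPPFL+ against MPPFL- and in CLP against GMP, and by less than 0.1 in the others.

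**Figure D2:**
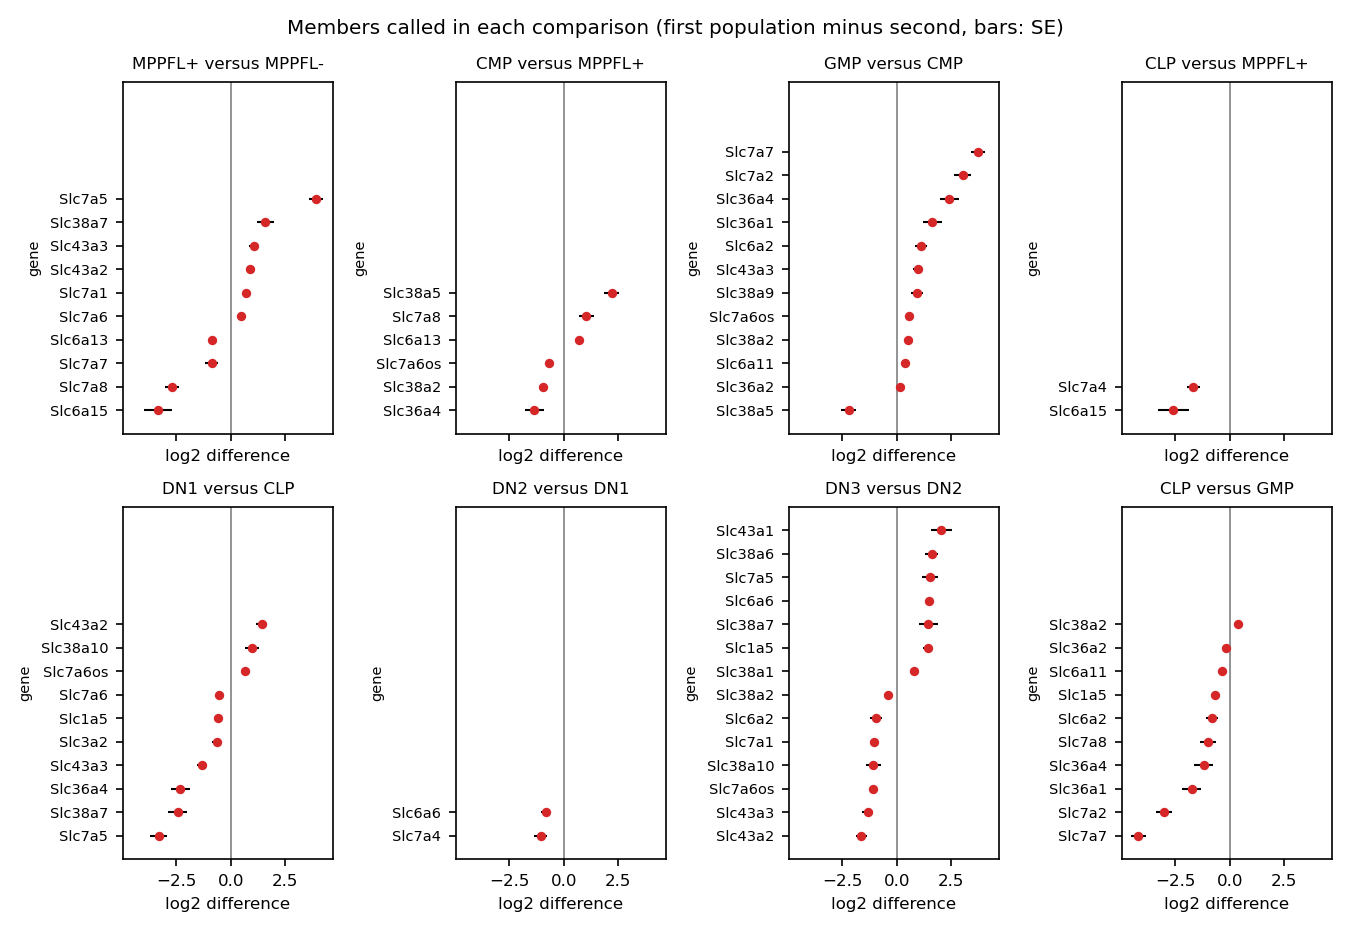
Log2 differences (x axis, first population minus second, bars the standard error of the fit) of the members called in each of the 8 comparisons, 1 gene per line and 1 panel per comparison. GMP against CMP is the most one-sided with many calls, 11 higher and 1 lower, and CLP against MPPFL+ and DN2 against DN1 show 2 members each.

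The exchanger of large neutral amino acids was taken up first, and its chains did not move together. Slc7a5, the light chain that carries leucine, stood at 8.32, 6.89, 7.31, 6.67 and 7.20 on the MPPFL- arrays and at 11.38, 11.18 and 11.02 on the MPPFL+ arrays. The groups did not overlap, and the mean was higher by 3.92 (SE 0.34), or 15.1-fold, in MPPFL+ (adjusted p 1.87e-07), the largest rise of any member there. In the other marrow populations it stood at 10.98 ± 0.51 in CMP, 10.70 ± 0.24 in GMP and 11.29 ± 0.25 in CLP (SD, n = 3), and none of the comparisons among MPPFL+, CMP, GMP and CLP passed. The thymocytes were lower: 7.50, 7.52 and 8.91 on DN1 and 7.99, 8.18 and 7.52 on DN2. DN1 was below CLP (-3.31, SE 0.38, 9.93-fold, adjusted p 2.37e-06). On the DN3 arrays it stood at 9.34, 9.29 and 9.62, above every DN2 array, with a difference of 1.52 (SE 0.38, 2.86-fold, adjusted p 0.00416). The calls between MPPFL- and MPPFL+ and between CLP and DN1 were kept under every alternative tried, and the DN3 call gave an adjusted p of 0.0795 with the spike-in clusters as a random block.

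Slc3a2, the heavy chain, differed far less. Its arrays lay between 10.37 and 10.89 in MPPFL- and between 10.68 and 10.92 in MPPFL+, a difference of 0.19 (SE 0.20) that did not pass (adjusted p 0.791). It was 9.96, 9.31 and 10.30 on DN1 against 10.49, 10.48 and 10.57 on CLP, lower (-0.65, SE 0.22, 1.57-fold, adjusted p 0.0316). That call ended without DN1 replicate 2 (-0.38, adjusted p 0.231) or without any CLP array (adjusted p 0.0645 to 0.0865), after quantile normalization and with the spike-in clusters as a block. From DN2 to DN3, where Slc7a5 rose, Slc3a2 was lower (-0.26, SE 0.22) without passing. Over the 8 populations the means of Slc3a2 spanned 1.04 and those of Slc7a5 spanned 4.01.

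Slc7a8, another light chain for neutral amino acids, had the opposite order in the multipotent progenitors. The MPPFL- arrays gave 6.42, 4.65, 6.26, 5.88 and 6.47 and the MPPFL+ arrays 3.54, 3.15 and 3.00. MPPFL+ was lower (-2.71, SE 0.32), or 6.53-fold (adjusted p 8.00e-06), and this call was kept under every alternative. CMP stood at 4.89, 4.22 and 3.70, higher than MPPFL+ by 1.04 (SE 0.36, adjusted p 0.0410), but this ended without MPPFL+ replicate 2, MPPFL+ replicate 3, CMP replicate 1 or CMP replicate 2 (adjusted p 0.0620 to 0.204). In CLP, DN1, DN2 and DN3 no array passed 3.16. Between the MPPFL- and MPPFL+ arrays, which share a spike-in cluster, other measures moved too, and their part was not tested. The log2 gap between the probe sets for the near and far ends of β-actin, a measure of RNA quality, was 3.12 to 4.08 in MPPFL- and 2.55 to 2.92 in MPPFL+. The mean of 6 macrophage and dendritic cell markers was 4.27 to 5.51 in MPPFL- and 5.79 to 6.11 in MPPFL+.

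**Figure D3:**
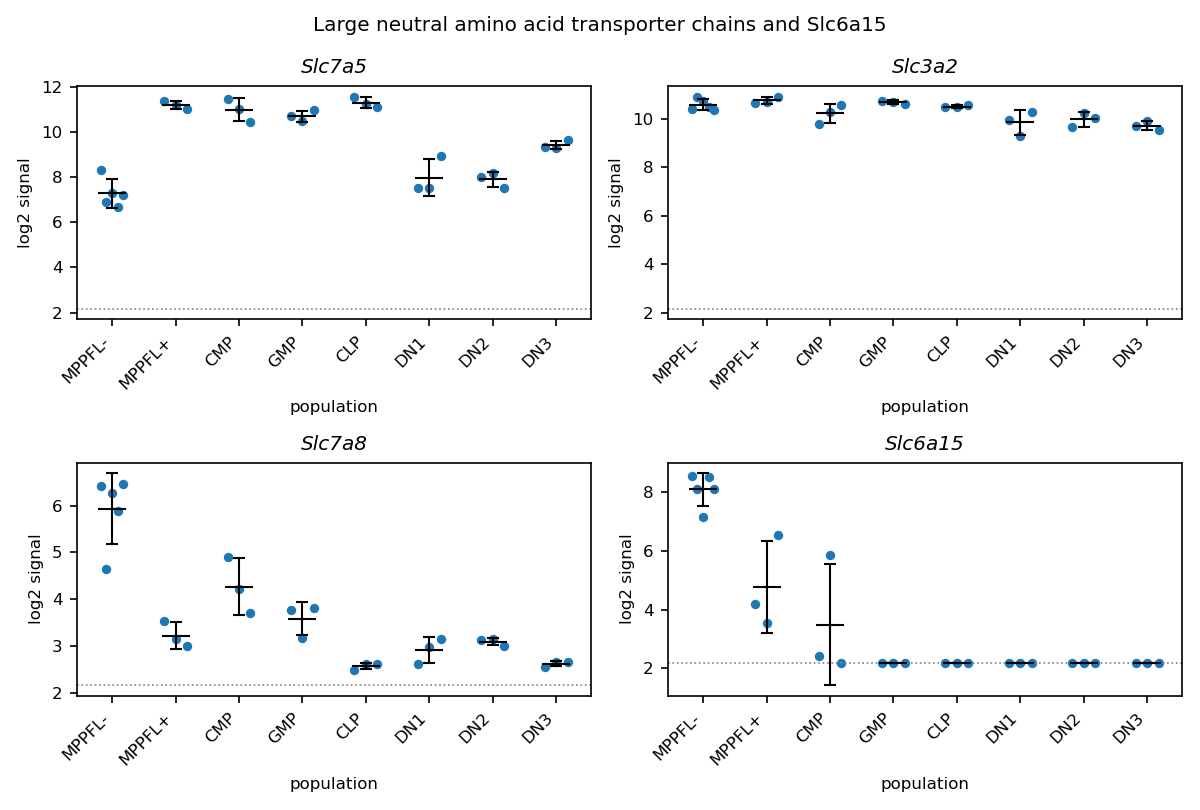
Log2 signal (y axis) by population (x axis) for Slc7a5, Slc3a2, Slc7a8 and Slc6a15, each point 1 array, with the mean and SD as lines and the floor of 2.17 dotted (each panel has its own y axis). Slc7a5 goes from a mean of 7.28 in MPPFL- to 11.19 in MPPFL+ while Slc3a2 goes from 10.58 to 10.76, and Slc7a8 and Slc6a15 are highest in MPPFL-.

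Slc7a7, the light chain that releases arginine and lysine in exchange for neutral amino acids, marked GMP. Its 3 GMP arrays stood at 7.83, 7.94 and 6.92, while no array of another population was above 4.64 (CMP replicate 3). GMP was above CMP by 3.73 (SE 0.33), or 13.2-fold (adjusted p 6.34e-08), and CLP was below GMP (-4.20, SE 0.33, 18.4-fold, adjusted p 4.86e-09). Its second probe set was also higher in GMP, by 1.93 over CMP. Both calls were kept under every alternative. At a much lower signal MPPFL+ (3.04 to 3.26) was below MPPFL- (3.41 to 4.58), by a difference of -0.88 (SE 0.29, adjusted p 0.0452), and that call ended on leaving out any of 18 arrays (adjusted p 0.0503 to 0.133).

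Slc7a6, the related exchanger, was close to even. Its population means spanned 0.54, the smallest range of the 23 members that were not dim. MPPFL+ (10.26, 10.34 and 10.84) was above MPPFL- (9.69 to 10.21) by 0.45 (SE 0.14, 1.37-fold, adjusted p 0.0274), and DN1 (9.98, 10.20 and 9.86) was below CLP (10.59, 10.44 and 10.63) (-0.54, SE 0.15, adjusted p 0.0106). Both ended after quantile normalization, and the first also without MPPFL+ replicate 3 (0.27, adjusted p 0.224), MPPFL- replicate 1 or MPPFL- replicate 4. Slc7a11, the light chain that imports cystine, stood at 2.17 to 2.23 on all arrays and gave no level.

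Among the cationic carriers, Slc7a1, which imports arginine and lysine, had high signal everywhere. Its MPPFL- arrays gave 11.54, 12.07, 11.65, 11.53 and 11.52, and MPPFL+ stood at 12.15, 12.28 and 12.61, higher by 0.68 (SE 0.19, 1.60-fold, adjusted p 0.0169). Without MPPFL+ replicate 3 the difference was 0.55 and the adjusted p 0.0968. CMP, GMP, CLP, DN1 and DN2 had means of 12.91, 13.06, 12.65, 12.91 and 12.99. DN3 fell to 11.63, 11.99 and 12.24 from 12.94, 13.05 and 12.98 on DN2, lower (-1.04, SE 0.21, 2.05-fold, adjusted p 0.000701). A second bright probe set of the gene differed there by only -0.15 and did not pass. With the spike-in clusters as a random block the adjusted p of the fall was 0.0550.

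Slc7a2, the carrier that supplies arginine in activated macrophages, was at the floor on all 23 arrays outside GMP and at 5.44, 3.67 and 6.49 on the GMP arrays. GMP was at least 8.16-fold higher than CMP (3.03, SE 0.38, adjusted p 8.16e-06) and than CLP (adjusted p 3.94e-06), and the size rested on single arrays, at least 5.22-fold without GMP replicate 3 and at least 13.9-fold without GMP replicate 2. A second of its 4 probe sets was also higher in GMP than in CMP. With only the arrays of the 2 populations compared the call against CMP did not pass (adjusted p 0.105), while the call against CLP did. The shared fit also takes its spread from the populations at the floor, where this signal did not vary. Slc7a4, a relative whose substrate is not settled, was lower in CLP (3.86, 3.74 and 3.96) than in MPPFL+ (5.74, 5.53 and 5.31) (-1.67, SE 0.31, 3.19-fold, adjusted p 0.00122). DN2 (3.41, 2.63 and 3.73) was below DN1 (4.49, 4.44 and 4.04) (-1.07, SE 0.31, adjusted p 0.0373). That second call ended without DN1 replicate 1, DN1 replicate 2, DN2 replicate 1 or DN2 replicate 2 (adjusted p 0.0571 to 0.199).

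The proton-coupled and lysosomal carriers were higher in GMP than in CMP for 4 of the 6 measured and none was lower, where 13.8% of all genes were higher. Their median difference was 0.84, against 0 over all genes and 0.145 over all genes that were not dim. Slc36a2, among the 4, never rose above 2.42, close to the floor. The count was 3 after quantile normalization and 1 with the spike-in clusters as a random block. Slc36a4, which carries proline and tryptophan, stood at 9.59, 9.46 and 9.63 on GMP, above all other arrays, and at 5.62, 8.16 and 7.63 on CMP. The difference was 2.42 (SE 0.44, 5.36-fold, adjusted p 0.000449), and without CMP replicate 1, the lowest array, it was 1.66 (3.17-fold, adjusted p 0.000625). CMP was also below MPPFL+ (8.43, 8.42 and 8.62) (-1.36, SE 0.44, adjusted p 0.0299). That call ended without CMP replicate 1 (-0.60, adjusted p 0.194) or any MPPFL+ array, and after quantile normalization. DN1 (6.31, 6.16 and 5.61) was below CLP (8.19, 8.67 and 8.20) (-2.33, SE 0.44, 5.02-fold, adjusted p 0.000455), kept under every alternative. CLP was below GMP (-1.21, SE 0.44, adjusted p 0.0473), a call that ended on leaving out any of 19 arrays.

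Slc36a1, which exports small amino acids from the lysosome, was likewise highest in GMP, at 8.64, 8.30 and 8.44, with no other array above 7.51. It was above CMP (6.11, 7.51 and 6.88) by 1.63 (SE 0.44, 3.09-fold, adjusted p 0.0109), though without CMP replicate 1 the adjusted p was 0.0683, and CLP (6.81, 6.82 and 6.53) was below GMP (-1.74, SE 0.44, 3.35-fold, adjusted p 0.00459). In the thymocytes it ran from 4.09 to 6.15. Slc38a9, the lysosomal sensor of arginine, varied little by its brightest probe set. GMP (9.42, 9.53 and 9.81) was above CMP (8.78, 9.16 and 8.03) by 0.93 (SE 0.26, adjusted p 0.0146). That call ended without CMP replicate 3 (0.62) or GMP replicate 3, after quantile normalization, and by the mean of its probe sets (0.13). Of its 6 other probe sets, 2 passed as higher and 1 as lower in DN1 against CLP, with differences of 3.11, 0.91 and -1.83. The last of these was higher in DN3 than in DN2 by 3.01. Also called in GMP against CMP were Slc36a2 and Slc6a11, whose arrays overlapped close to the floor, and the non-transporter Slc7a6os (0.57, SE 0.20, adjusted p 0.0431).

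Slc38a7, which exports glutamine from the lysosome, followed Slc7a5 in direction at 3 steps. It rose from 4.80 to 5.49 in MPPFL- to 6.62, 7.13 and 6.64 in MPPFL+ (1.59, SE 0.38, 3.02-fold, adjusted p 0.00594). It fell from 7.17, 6.78 and 7.51 in CLP to 5.63, 3.52 and 4.97 in DN1 (-2.45, SE 0.42, 5.46-fold, adjusted p 0.000190), or -1.86 without DN1 replicate 2. DN3 (6.85, 6.78 and 7.02) was above DN2 (5.32, 5.998 and 4.97) by 1.46 (SE 0.42, 2.74-fold, adjusted p 0.0117), but the adjusted p was 0.0614 without DN2 replicate 3 and 0.0588 after quantile normalization.

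**Figure D4:**
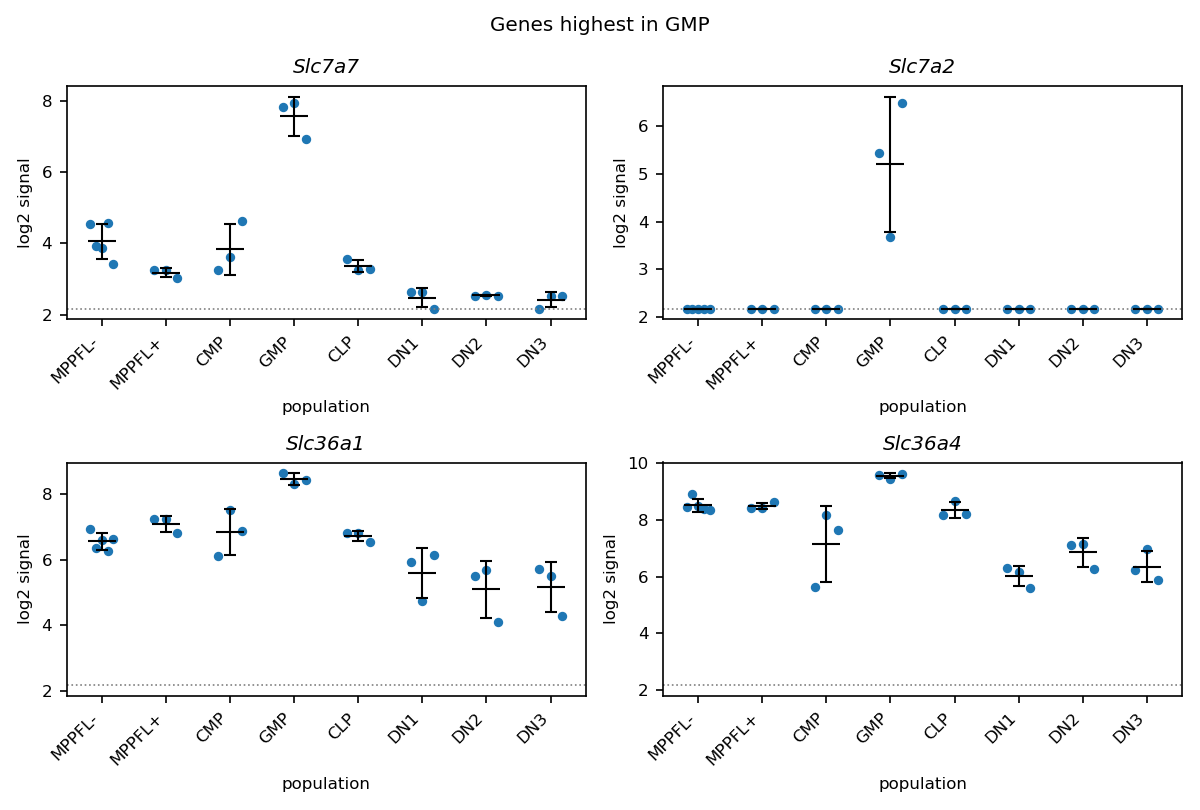
Log2 signal (y axis) by population (x axis) for Slc7a7, Slc7a2, Slc36a1 and Slc36a4, each point 1 array, with the mean and SD as lines and the floor of 2.17 dotted (each panel has its own y axis). All 3 GMP arrays stand above every other array for Slc7a7, Slc7a2, Slc36a1 and Slc36a4.

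The markers of late neutrophils were also highest on the GMP arrays. The mean of these 5 genes (Ltf, Camp, Ngp, S100a8 and S100a9) was 9.16 to 9.95 on GMP, 7.10 to 9.12 on CMP and 2.39 to 2.56 on CLP, where 4 of the 5 were within 1 of the floor. On MPPFL+ it was 3.34, 3.33 and 8.25. The mean of 6 macrophage and dendritic cell markers was 5.81 to 6.02 on GMP, 5.20 to 6.10 on CMP and 6.03 to 6.15 on CLP, with C1qa within 1 of the floor on every array of these 3 populations. The β-actin gap given above as a measure of RNA quality was 1.47 to 1.52 on GMP, 1.68 to 2.96 on CMP and 2.51 to 2.84 on CLP. The same gap for Gapdh was 1.85 to 2.05, 1.87 to 2.54 and 3.06 to 3.49. The part of these cells and of RNA quality in the Slc7a7, Slc7a2, Slc36a1 and Slc36a4 results was not tested. With the spike-in clusters as a random block 4 of the 12 calls of GMP against CMP were kept, Slc7a7, Slc7a2, Slc36a4 and Slc38a5. With only the arrays of these 2 populations 2 of the 12 were kept, Slc7a7 and Slc38a2.

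The Slc43 carriers changed in different directions. Slc43a2, a uniporter of large neutral amino acids, was highest in DN1, at 11.40, 11.46 and 10.91 against 10.04, 9.68 and 9.79 in CLP (1.41 higher, SE 0.25, 2.67-fold, adjusted p 0.000269), or 0.60 by the mean of its probe sets (adjusted p 0.0716). It then fell from 10.81, 10.69 and 10.26 in DN2 to 9.09, 8.87 and 8.87 in DN3 (-1.65, SE 0.25, 3.13-fold, adjusted p 4.01e-05). Its other 2 probe sets did not follow: in DN3 against DN2 they differed by 0.90 and 0.98 in the other direction without passing, and the mean over all 3 gave 0.08, so the fall rests on 1 probe set. MPPFL+ (10.16, 10.36 and 9.61) was above MPPFL- (9.06 to 9.32) by 0.90 (SE 0.23, adjusted p 0.00896), which ended without MPPFL+ replicate 2 (0.74, adjusted p 0.0765), and 1 of its other probe sets was lower there (-1.11).

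Slc43a3, a family member that carries purine nucleobases, was highest in GMP at 11.35, 11.24 and 11.26 and lowest in DN3 at 8.48, 8.68 and 8.91. MPPFL+ was above MPPFL- by 1.06 (SE 0.21, 2.09-fold, adjusted p 0.00156), GMP above CMP by 0.98 (SE 0.24, adjusted p 0.00539), DN1 below CLP (-1.32, SE 0.24, 2.49-fold, adjusted p 0.000290) and DN3 below DN2 (-1.35, SE 0.24, 2.54-fold, adjusted p 0.000175). The arrays of each of these pairs did not overlap. Slc43a1, the other uniporter of large neutral amino acids, lay between 3.08 and 4.42 everywhere except on DN3, where the arrays gave 7.10, 5.86 and 3.59. DN3 was above DN2 by 2.05 (SE 0.50, 4.15-fold, adjusted p 0.00337), the largest rise at that step, but DN3 replicate 3 lay among the DN2 arrays. The difference was 3.02 without that array and 1.26 without DN3 replicate 1.

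Of the sodium-coupled neutral carriers 3 of 9 rose and 2 of 9 fell from DN2 to DN3, where 16.7% of all genes rose and 14.4% fell. With the spike-in clusters as a random block 2 rose and 0 fell. Slc1a5, a main entry route for glutamine, rose from 9.04, 9.02 and 8.94 to 10.53, 10.52 and 10.19 (1.41, SE 0.19, 2.66-fold, adjusted p 8.58e-06). Slc38a6, a less studied relative, rose from 7.35, 7.02 and 7.02 to 9.15, 8.62 and 8.43 (1.61, SE 0.29, 3.04-fold, adjusted p 0.000202), and no array outside DN3 was above 7.97. Slc38a1, an importer of glutamine, rose from 12.24, 12.19 and 12.15 to 12.98, 13.31 and 12.70 (0.80, SE 0.20, 1.74-fold, adjusted p 0.00345), and its second probe set was also higher. Slc1a5 and Slc38a6 passed under every alternative, though the second probe set of Slc1a5 did not pass at this step, and Slc38a1 gave an adjusted p of 0.140 with the spike-in clusters as a block. Slc1a4 was at 5.56, 4.36 and 4.22 in DN2 and 3.52, 3.40 and 3.68 in DN3, a difference of -1.18 (SE 0.57) that did not pass.

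The falls at that step were smaller or less firm. Slc38a10, of little known function, stood at 13.11, 13.07 and 12.62 in DN2 and 11.89, 12.30 and 11.38 in DN3, lower (-1.08, SE 0.34, adjusted p 0.0197). It had risen by 0.97 (SE 0.34, adjusted p 0.0402) from CLP to DN1. The first call ended without DN2 replicate 1, DN2 replicate 2 or DN3 replicate 3 (adjusted p 0.0605 to 0.103), the second without any CLP array, DN1 replicate 1 or DN1 replicate 2 (0.0646 to 0.168). Both calls of Slc38a10 also ended by the mean of its probe sets. Of its 6 other probe sets 1 passed in the same direction at each step. Slc38a2, which cells induce when amino acids run short, was lower in DN3 (-0.42, SE 0.14, adjusted p 0.0228). This rested on DN3 replicate 3, at 12.83 against 13.57 and 13.54, since without it the difference was -0.18, and the call also ended without DN2 replicate 1. Slc1a5 was lower in DN1 than in CLP (-0.57, SE 0.19, adjusted p 0.0308), but its second probe set was higher there by 1.34, and the call ended without CLP replicate 1, CLP replicate 2, DN1 replicate 1 or DN1 replicate 2 (adjusted p 0.0515 to 0.214).

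In the myeloid branch Slc38a2 was lowest in CMP. Its arrays gave 12.27, 12.51 and 12.56 in CMP and 13.40, 13.29 and 13.53 in MPPFL+, lower (-0.96, SE 0.14, 1.95-fold, adjusted p 3.26e-05). GMP (12.96, 13.005 and 12.91) was above CMP by 0.51 (SE 0.14, adjusted p 0.01001), yet its second probe set was lower in GMP (-1.98), the mean over its 3 probe sets gave -0.65, and the call ended without CMP replicate 1 (0.42, adjusted p 0.0551). Over the mean of its probe sets the CMP difference was -0.19 and did not pass. Slc38a5, a glutamine and serine exchanger, was at the floor on all 23 arrays outside CMP and at 2.89, 5.28 and 4.98 on CMP, at least 4.63-fold above MPPFL+ (adjusted p 0.000108) and above GMP (adjusted p 0.000110). Without CMP replicate 1 the bound was 7.77-fold. With only the arrays of the 2 populations compared neither call passed (adjusted p 0.184 against MPPFL+ and 0.170 against GMP). The shared fit also takes its spread from populations at the floor on every array, where the signal did not vary. The mean of 3 erythroid markers (Hba-a1, Alas2 and Klf1) was 4.34, 5.20 and 5.16 on the same CMP arrays and at most 3.12 on the others, with Hba-a1 within 1 of the floor on all of them. Their part in the Slc38a5 result was not tested. With the spike-in clusters as a random block 2 of the 6 calls of CMP against MPPFL+ were kept, Slc38a2 and Slc38a5. With only the arrays of these 2 populations 1 of the 6 was kept, Slc38a2.

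**Figure D5:**
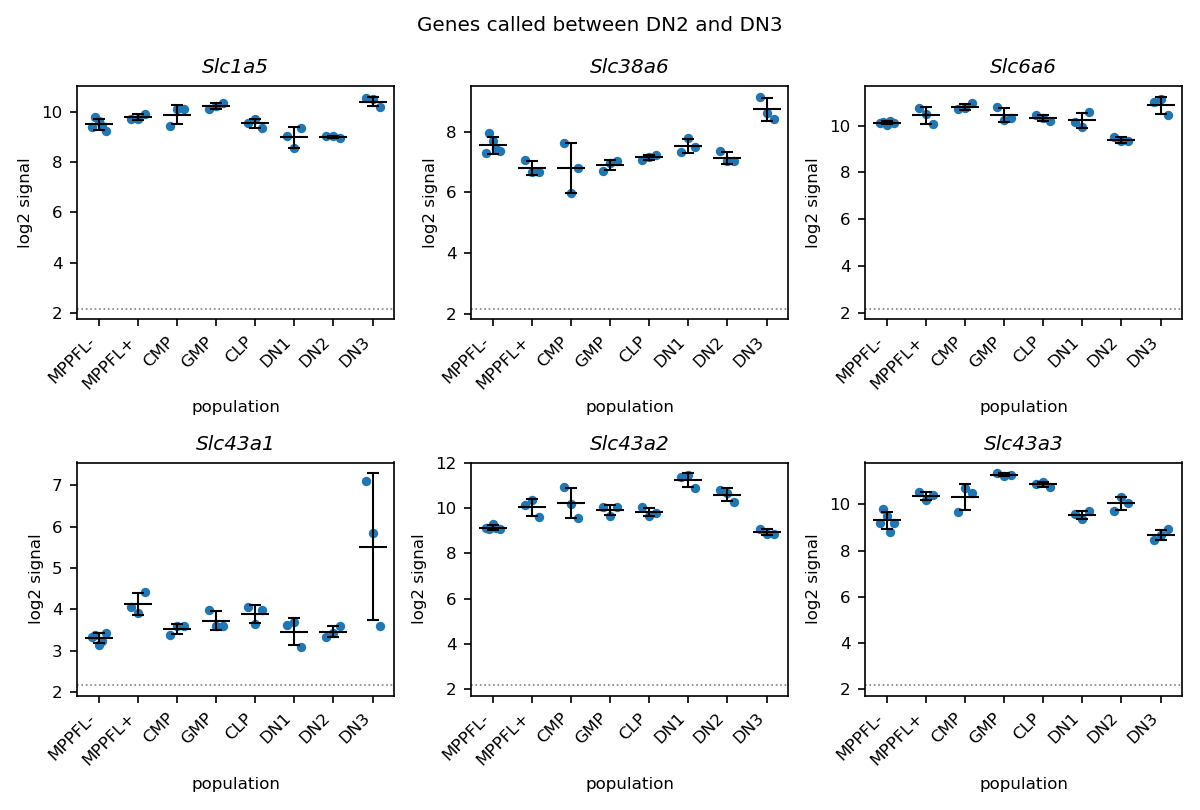
Log2 signal (y axis) by population (x axis) for Slc1a5, Slc38a6, Slc6a6, Slc43a1, Slc43a2 and Slc43a3, each point 1 array, with the mean and SD as lines and the floor of 2.17 dotted (each panel has its own y axis). From DN2 to DN3 Slc1a5, Slc38a6 and Slc6a6 go up on all 3 arrays, Slc43a1 on 2 of 3, and Slc43a2 and Slc43a3 go down.

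Within the Slc6 family only Slc6a6 and Slc6a15 were not dim. Slc6a15, which carries leucine, isoleucine, valine and proline, was a gene of MPPFL-. It stood at 8.55, 8.13, 7.17, 8.51 and 8.13 there, at 4.21, 3.55 and 6.54 in MPPFL+, at 2.43, 5.86 and 2.17 in CMP and at the floor, to 2 decimals, on all 15 arrays of GMP, CLP, DN1, DN2 and DN3. MPPFL+ was below MPPFL- (-3.33, SE 0.65), or 10.1-fold (adjusted p 0.00122), and the difference was -4.22 without MPPFL+ replicate 3 and -2.72 without MPPFL+ replicate 2. CLP was at least 6.04-fold below MPPFL+ (adjusted p 0.0347), but that call ended without MPPFL+ replicate 3, the array on which the late neutrophil markers also stood apart (-1.71, adjusted p 0.225), or without any CLP array.

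Slc6a6, the taurine carrier, was lowest in DN2 and rose after it. DN2 gave 9.52, 9.33 and 9.33 against 10.15, 9.94 and 10.60 in DN1 (-0.84, SE 0.19, adjusted p 0.00840), which ended without DN1 replicate 3 (adjusted p 0.0612). DN3 gave 11.04, 11.15 and 10.47, higher than DN2 by 1.49 (SE 0.19, 2.82-fold, adjusted p 4.89e-06). Of the 3 other probe sets of Slc6a6, 2 were also higher, by 3.28 and 0.26. The one with the smaller rise averaged 2.22 over all arrays, close to the floor. Without the 3 arrays with Xist above 10 neither member called between DN1 and DN2, Slc6a6 and Slc7a4, was kept, DN1 then holding a single array, while the DN3 rise of Slc6a6 passed. Also lost without them were Slc38a10, Slc7a6 and Slc7a6os between CLP and DN1 and Slc38a10 and Slc6a2 between DN2 and DN3. Among comparisons that hold none of these arrays, but share the fit, the calls lost were Slc7a7 between MPPFL- and MPPFL+, Slc7a8 between MPPFL+ and CMP, Slc6a11 and Slc7a6os between CMP and GMP, Slc6a15 between MPPFL+ and CLP, and Slc36a4, Slc38a2, Slc6a11 and Slc7a8 between GMP and CLP. The handling genes averaged 9.03, 9.38 and 12.1 on DN2 and 5.60, 5.75 and 9.32 on DN3, and their part in the differences was not tested. With the spike-in clusters as a random block 6 of the 14 calls of DN3 against DN2 were kept (Slc1a5, Slc38a6, Slc43a2, Slc43a3, Slc6a6 and Slc7a6os) and 5 of the 10 of DN1 against CLP (Slc36a4, Slc38a7, Slc43a2, Slc43a3 and Slc7a5).

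Dim Slc6 genes gave small differences. Slc6a13, a GABA and taurine carrier, stood at 2.95 to 3.87 in MPPFL- and 2.58 to 2.61 in MPPFL+, lower (-0.84, SE 0.16, adjusted p 0.000743), and at 2.95, 3.37 and 3.53 in CMP (0.69 higher, SE 0.17, adjusted p 0.00634). Slc6a2, the noradrenaline carrier, stood at 5.07, 4.76 and 4.19 in GMP and at most 3.61 in CMP (1.13 higher, SE 0.27, adjusted p 0.00516). Between DN2 (3.61, 4.92 and 4.35) and DN3 (3.40, 3.60 and 3.06) it was lower (-0.94, adjusted p 0.0122), a call that ended without DN2 replicate 2 or DN3 replicate 3. Slc6a9, the glycine carrier, stayed between 2.41 and 3.71.

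Slc7a6os, which is no transporter, differed at several steps: by -0.67 for CMP against MPPFL+, by 0.67 for DN1 against CLP and by -1.10 for DN3 against DN2 (SE 0.20 each, adjusted p 0.0155, 0.0144 and 0.000190). The first ended without MPPFL+ replicate 3 or CMP replicate 2, the second without CLP replicate 1, CLP replicate 2 or DN1 replicate 2. The DN1 and DN3 calls also ended by the mean of its probe sets. Its other probe set gave -0.17 for DN1 against CLP and 0.14 for DN3 against DN2, without passing. It was highest in DN2, at 10.19, 9.85 and 9.80.

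Set against GMP, CLP was lower in 9 of the 10 members called. Beside Slc7a7, Slc7a2, Slc36a1 and Slc36a4, Slc1a5 stood at 9.57, 9.72 and 9.37 in CLP and 10.11, 10.22 and 10.35 in GMP (-0.67, SE 0.19, adjusted p 0.0108), which ended without CLP replicate 3 (adjusted p 0.0550). Slc7a8 was lower (-1.01, SE 0.36, adjusted p 0.0411) and so was Slc6a2 (-0.80, SE 0.27, adjusted p 0.0339), and both ended on leaving out several single arrays. Slc38a2 was higher in CLP by 0.39 (SE 0.14, adjusted p 0.0364), ending without any GMP or CLP array. With the spike-in clusters as a random block Slc7a7 and Slc7a2 were kept.

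Other genes of amino acid supply, from lists chosen with earlier results in view, gave the following beside the members. The share of all genes called in the same direction stands beside each count, and the spike-in block is the random block by spike-in cluster. Of 17 further amino acid and peptide transporters 6 rose and none fell from CMP to GMP (median 0.69, against 13.8% of all genes higher), led by Ctns, the lysosomal cystine exporter (2.16, SE 0.45, adjusted p 0.00158), Slc25a12, a mitochondrial aspartate carrier (1.52, SE 0.22), and Slc66a1, a lysosomal exporter of cationic amino acids (1.43, SE 0.40, adjusted p 0.0135). With the spike-in block 1 of these 17 passed. From CLP to DN1 8 fell and none rose (median -0.86, against 18.8% of all genes lower), led by Slc16a10, a carrier of aromatic amino acids (-2.16, SE 0.18). After quantile normalization this was 5 lower and 1 higher, and with the spike-in block 1 lower. From DN2 to DN3 7 rose and 2 fell (5 and 3 after quantile normalization, 2 and 0 with the spike-in block, against 16.7% and 14.4% of all genes), led by Slc25a29, a mitochondrial carrier of basic amino acids (3.60, SE 0.46, adjusted p 4.20e-06), Ctns (2.07) and Slc15a4, a lysosomal histidine and peptide carrier (2.01, SE 0.40).

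Among 24 genes of amino acid sensing by mTORC1, 8 rose and 1 fell from DN2 to DN3 (6 and 1 with the spike-in block, against 16.7% and 14.4% of all genes), led by Tsc2, Depdc5 and Nprl3 (3.08, 2.62 and 2.39). From CLP to DN1 2 rose and 6 fell, against 8.03% and 18.8% of all genes. Depdc5, Tsc2 and Nprl3 were lower at that step (-2.58, -1.98 and -1.57). From MPPFL- to MPPFL+ 5 rose and 1 fell (3 and 3 after quantile normalization, 5 and 1 with the spike-in block, against 10.6% and 5.25% of all genes), led by Rraga, a GTPase that brings mTORC1 to the lysosome (3.78, SE 0.56, adjusted p 8.44e-05). From MPPFL+ to CMP 9 fell and 2 rose (5 and 3 after quantile normalization, 3 and 0 with the spike-in block, against 18.7% and 5.39% of all genes), led by Castor1, an arginine sensor (-2.59). Mtor itself stayed between means of 9.96 and 10.78 and passed in no comparison.

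Of 19 aminoacyl-tRNA synthetases 6 rose and none fell from CMP to GMP (4 and 1 after quantile normalization, 2 and 0 with the spike-in block, against 13.8% and 7.63% of all genes). From CLP to DN1 2 rose and 6 fell (3 and 4 after quantile normalization, 0 and 4 with the spike-in block, against 8.03% and 18.8%). From DN2 to DN3 4 rose and 6 fell (4 and 5 after quantile normalization, 2 and 2 with the spike-in block, against 16.7% and 14.4%). Vars, which charges valine, fell by 2.81 from CLP to DN1 (SE 0.33, adjusted p 2.80e-06) and rose by 2.21 from DN2 to DN3 (SE 0.33), the same directions as Slc7a5. Of 21 amino acid response genes 7 fell and 1 rose from MPPFL+ to CMP (4 and 2 after quantile normalization, 2 and 1 with the spike-in block, against 18.7% and 5.39% of all genes), led by Vldlr (-5.43) and Trib3 (-4.63). Between DN2 and DN3 5 fell and 2 rose (5 and 1 after quantile normalization, 3 and 0 with the spike-in block, against 14.4% and 16.7%). Atf4, their activator, was higher in DN1 than in CLP by 0.95 (SE 0.33, adjusted p 0.0402) and lower in DN3 than in DN2 (-1.82, SE 0.33, adjusted p 0.000252). Of 15 genes that use glutamine, serine or arginine, Glul, which makes glutamine, was lower in DN3 (-2.37, SE 0.18, adjusted p 3.55e-09), and 3 rose and 3 fell at that step (1 and 3 with the spike-in block, against 16.7% and 14.4% of all genes).

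Myc, a known activator of Slc7a5 and Slc1a5 in activated T cells, is given beside them. Its means were 12.35 in MPPFL-, 12.28 in MPPFL+, 11.49 in CMP, 11.65 in GMP, 11.65 in CLP, 9.72 in DN1, 9.19 in DN2 and 12.62 in DN3. It was lower in DN1 than in CLP (-1.92, SE 0.40, adjusted p 0.00112) and higher in DN3 than in DN2 by 3.43 (SE 0.40, adjusted p 1.51e-06). MPPFL- and MPPFL+, between which Slc7a5 differed 15.1-fold, differed in Myc by -0.07 (SE 0.36, adjusted p 1). The Myc arrays ran from 12.19 to 12.59 in MPPFL- and from 11.71 to 13.09 in MPPFL+. The part of Myc, and of the cell cycle genes that follow, in the transporter differences was not tested. Of 15 cell cycle genes 7 rose from MPPFL- to MPPFL+ (median 0.62, 7 with the spike-in block, against 10.6% of all genes). From CLP to DN1 10 fell (median -1.08, 5 with the spike-in block, against 18.8%). Between DN2 and DN3 14 fell (median -2.87, 13 with the spike-in block, against 14.4%), led at that step by Plk1, Ccna2 and Bub1 (-5.13, -4.49 and -4.40), while Slc7a5, Slc1a5, Slc38a1 and Slc38a6 rose there.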

How the data were processed

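The arrays measured total RNA extracted with Trizol and labelled as biotin cRNA, per the labels' protocols. Values are log2 signals per probe set as deposited by the authors; the background correction and normalization behind them are not given in the sources used here. They were used unchanged. Groups follow the sample titles; a second label spells MPP as MMP and gives ALP for CLP. Of 45101 probe sets, 34958 carried 1 symbol in the platform annotation, 932 several and 9211 none, and the first gave 18194 genes, each by its brightest probe set. All 26 arrays were fitted together with lmFit and eBayes (limma 3.58.1, R 4.3.3), with population as the only term, and p-values were adjusted over all genes (Benjamini-Hochberg, threshold 0.05). The code was tested on simulated data. Folds against a group at the floor are lower bounds.

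Genes were named by a rule: the 6 largest called rises and falls per comparison and a fixed set of 18 carriers, with up to 3 genes of each other list and Myc, Atf4 and Mtor. Other called members were named after their values were seen. The members and lists were chosen with earlier results of these data known. The alternative without the arrays with Xist above 10 was added after seeing the data. The number of arrays limits the precision.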

Additional observations from a re-analysis of the deposited data

Results flagged for a closer look

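Of the 23 members that were not dim, 4 had an MPPFL- array standing apart from the other 4 by Dixon's criterion (critical value 0.710), which chance alone meets in about 1 of 20 groups. Slc36a4 stood at 8.92 on replicate 2, with the others at 8.36 to 8.50. Slc7a1 stood at 12.1 on replicate 2, with the others at 11.5 to 11.7. Slc43a2 stood at 9.32 on replicate 3, with the others at 9.06 to 9.12. Slc38a10 stood at 11.4 on replicate 1, below the others.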

How the results depend on the processing

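The counts of called members moved by over 1.5 times under these alternatives. With the spike-in cluster as a random block there were 2 for CMP against MPPFL+, 4 for GMP against CMP, 5 for DN1 against CLP, 6 for DN3 against DN2 and 2 for CLP against GMP. With only the arrays of the populations compared there were 1 for CMP against MPPFL+, 2 for GMP against CMP, 1 for CLP against MPPFL+ and 0 for DN2 against DN1. Quantile normalization gave 1 for CLP against MPPFL+ and 1 for DN2 against DN1. Without the 3 arrays with Xist above 10 there were 1 and 4 for the same comparisons. The mean of all probe sets gave 6 for DN1 against CLP, and leaving out dim genes gave 6 for CLP against GMP. Same-numbered replicates did not pair: of 84 pairs, 9 correlated above 0.1 (median -0.03). The replicate block gave 1 for CLP against MPPFL+ and 6 for CLP against GMP.

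Leaving out each array in turn gave 7 to 12 calls for MPPFL+ against MPPFL-, 4 to 11 for CMP against MPPFL+ (10 without CMP replicate 2, 11 without CMP replicate 3), 10 to 14 for GMP against CMP, 1 to 2 for CLP against MPPFL+, 6 to 14 for DN1 against CLP (6 without CLP replicate 1 or CLP replicate 2), 1 to 3 for DN2 against DN1, 11 to 16 for DN3 against DN2, 5 to 11 for CLP against GMP (6 without GMP replicate 1, 5 without CLP replicate 2 or CLP replicate 3), and 26 to 29 for the F test.

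Of 61 calls of single genes, 28 were lost with the spike-in block, 27 with only the arrays compared and 12 after quantile normalization. With the mean of all probe sets 3 differences reversed: Slc38a2 in GMP against CMP (-0.65), Slc1a5 in DN1 against CLP (0.38) and Slc43a2 in DN3 against DN2 (0.0783), since their probe sets differ in direction. The eBayes fit with trend and robust settings lost none. Signals within 1 of the floor carry no level.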
